A study of Mus musculus with 14 samples.

Results

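A set of 37 mouse genes was followed in cerebellar granule neuron progenitors (GNPs). It held Trp53, which encodes p53, its main regulators, genes that p53 is known to induce, and genes of the intrinsic apoptosis pathway. Some members, such as Ccng2, Sesn3, Gadd45b and Gadd45g, belong to the families of p53-induced genes and are not taken here as p53 targets themselves. The genes were chosen by name, all 37 were found among the 41381 Ensembl genes measured, and 36 passed the filter on low values (at least 1 TPM, a gene's share of all transcripts scaled to a fixed total, in at least 4 of 14 libraries). The exception was Fas, a death receptor, which was listed at 0.09 to 1.05 TPM. Total RNA was sequenced from GNPs isolated on a Percoll gradient from cerebella at postnatal day 7 (P7). The 5 WT libraries came from mice without Cre that carried floxed Chd7, the gene of a chromatin remodeller. The 5 Het libraries came from Atoh1-Cre::Chd7 f/+ mice and the 4 Hom libraries from Atoh1-Cre::Chd7 f/f mice, in which Cre is driven by Atoh1 in the granule cell lineage and, per the study, probably recombines less in the posterior lobe. The strain was labelled C56Bl6/J in some libraries and C57BL/6 in others, the sex of the pups was not distinguished, and the number of pups behind a library is not given in the sources used here. Per the study's methods, WT 1 to 3, Het 1 to 3 and Hom 1 and 2 were sequenced in batch 1 and the other 6 libraries in batch 2.

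p53 is a transcription factor that is kept at a low protein level by the ubiquitin ligase Mdm2 and its partner Mdm4, and that is stabilised after DNA damage and other stress. Stabilised p53 induces genes of cell cycle arrest such as Cdkn1a, of DNA repair, of antioxidant defence and of cell death. Intrinsic apoptosis is set by the balance of BCL2 family proteins at the mitochondrion: BH3-only proteins such as Puma (Bbc3), Noxa (Pmaip1) and Bim (Bcl2l11) promote Bax activity, Bcl2, Bcl-xL (Bcl2l1) and Mcl1 oppose it, and released cytochrome c lets Apaf1 activate caspase-9. Since p53 is controlled largely at the protein level, the level of its mRNA does not report its activity, which is read from its target genes. Activated p53 is a known effect of Chd7 loss in other tissues, and whether its target genes moved in Chd7 mutant GNPs is the question that this gene set addresses.

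The names WT, Het and Hom are those of the labels. Chd7 itself stood at 121 to 152 TPM in the WT, 150.4 to 181 TPM in the Het and 172 to 185 TPM in the Hom libraries of batch 1, and at 203 to 272 TPM in the WT, 137 to 149.4 TPM in the Het and 126 to 149.9 TPM in the Hom libraries of batch 2. In batch 1 the libraries labelled Hom were therefore above those labelled WT, against the direction of the label, and over both batches Chd7 did not pass the test (log2 change -0.11 ± 0.20 (SE), limma adjusted p = 0.862). The gene total includes exons outside the floxed part, so it is a weak check of the genotype. GNP markers (12 genes, including Atoh1, Zic1 and Ccnd2) summed to 3363 to 4349 TPM in all libraries. Of these 12, limma called 1, Ccnd1, higher in Hom than in WT (adjusted p = 0.000111) and 0 lower (1.27% and 1.41% of all genes were). At an unadjusted p under 0.05, 3 were higher and 1 was lower in Hom (8.51% and 6.42% of all genes were). Markers of other cells were also present, and their sums varied between libraries and batches as well as between genotypes. The 10 endothelial and mural genes summed to 39.6 to 309 TPM in WT, 28.2 to 592 TPM in Het and 146 to 426 TPM in Hom, and 6 of 10 were higher in Hom than in WT at an unadjusted p under 0.05 (limma called 0; 8.51% of all genes were higher at that p). The WT sums of this list were 39.6 to 54.8 TPM in batch 1 and 162 and 309 TPM in batch 2. The 10 markers of differentiating granule neurons summed to 2556 to 3235 TPM in WT, 2755 to 2915 TPM in Het and 2123 to 2608 TPM in Hom. Of the 9 tested, limma called 3 lower and 1 higher in Hom than in WT (1.41% and 1.27% of all genes were). Red blood cell genes summed to 296 to 715 TPM in WT, 141 to 364 TPM in Het and 188 to 351 TPM in Hom. At an unadjusted p under 0.05, 4 of 5 were lower in each mutant, beside 6.42% of all genes in Hom and 2.88% in Het (limma called 0). The 8 Purkinje cell genes summed to 54.1 to 197 TPM in WT, 45.7 to 94.2 TPM in Het and 38.7 to 60.3 TPM in Hom. Of the 7 tested, limma called 1, Pcp4, lower in Hom than in WT (adjusted p = 0.00914) and 0 higher (1.41% and 1.27% of all genes were). The 8 astroglial genes summed to 419.7 to 1805 TPM in WT, 564 to 1125 TPM in Het and 326 to 669 TPM in Hom. At an unadjusted p under 0.05, 5 of these 8 were lower in Hom than in WT (62.5% beside 6.42% of all genes, limma called 0). In Het, 0 of them were lower at that p. In batch 2 the WT sums were 57.6 and 54.1 TPM for Purkinje genes and 849 and 419.7 TPM for astroglial genes. WT 1 to 3 and Het 3, all of batch 1, had the lowest endothelial and mural sums and the highest Purkinje sums of the 14 libraries. The part of these cells in the results below was not tested. Mitochondrial genes made up 4.93 to 6.56% of the TPM of a library. In these bulk preparations, fewer cells of a type and less RNA per cell cannot be told apart.

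The promoters below show where 2 short motifs lie in members whose levels are described later: the p53 half-site decamer and the cyclic AMP response element (CRE, TGACGTCA). The motifs were chosen after the values were seen. Of the 37 members, 29 had a promoter window in the RefSeq table (GRCm38.p6, 250 bases before to 50 after a start site), and 9 of these 29 genes held the decamer on either strand (Trp53, Mdm2, Cdkn1a, Ccng1, Gadd45a, Sesn1, Polk, Aen and Bax). The decamer was in 8.36% of all 32851 promoter windows and in 10 of the 39 windows of the members. The CRE was in 1.79% of all windows, and among the members it was in Btg2 and Plk2. No member window held a CArG box, the site of serum response factor, which was in 1.63% of all windows. The 2 matching windows of Aen overlapped and held the same decamer, so this site is counted in both windows. No other matches overlapped. A match is a description of the letters and not evidence of binding. In the 250 bases upstream of the start site, written 5′ to 3′ on the strand of the gene, capitals mark the decamer in the first 3 promoters and the CRE in the last 2, and Plk3, the one member that was called by genotype, held neither.
Cdkn1a, chr17:29090729-29090978, plus strand: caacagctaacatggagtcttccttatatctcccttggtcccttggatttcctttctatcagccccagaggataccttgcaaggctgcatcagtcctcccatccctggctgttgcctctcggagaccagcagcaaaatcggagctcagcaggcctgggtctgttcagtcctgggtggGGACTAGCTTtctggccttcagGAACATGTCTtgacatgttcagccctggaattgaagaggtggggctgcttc
Ccng1, chr11:40755287-40755536, minus strand: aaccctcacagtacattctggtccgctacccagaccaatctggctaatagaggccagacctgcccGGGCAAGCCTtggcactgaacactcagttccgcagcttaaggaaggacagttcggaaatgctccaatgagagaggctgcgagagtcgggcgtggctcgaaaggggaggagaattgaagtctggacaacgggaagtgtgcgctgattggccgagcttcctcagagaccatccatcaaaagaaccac
Mdm2, chr10:117710759-117711008, minus strand: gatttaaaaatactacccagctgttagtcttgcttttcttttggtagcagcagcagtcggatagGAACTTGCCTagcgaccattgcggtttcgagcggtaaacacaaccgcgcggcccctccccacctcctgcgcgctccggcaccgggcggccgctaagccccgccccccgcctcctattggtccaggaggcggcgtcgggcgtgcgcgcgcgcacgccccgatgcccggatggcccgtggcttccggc
Plk3, chr4:117133964-117134213, minus strand: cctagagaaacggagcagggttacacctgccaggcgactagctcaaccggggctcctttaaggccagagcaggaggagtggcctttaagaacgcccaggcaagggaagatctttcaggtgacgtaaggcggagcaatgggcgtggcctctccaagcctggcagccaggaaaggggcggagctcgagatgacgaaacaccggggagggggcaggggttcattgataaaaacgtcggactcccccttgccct
Btg2, chr1:134079156-134079405, minus strand: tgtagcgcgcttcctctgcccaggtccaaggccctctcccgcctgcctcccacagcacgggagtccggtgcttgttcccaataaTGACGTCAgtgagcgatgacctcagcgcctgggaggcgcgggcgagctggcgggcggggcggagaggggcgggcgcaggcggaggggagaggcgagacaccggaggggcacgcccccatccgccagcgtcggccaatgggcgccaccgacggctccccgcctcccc
Plk2, chr13:110394794-110395043, plus strand: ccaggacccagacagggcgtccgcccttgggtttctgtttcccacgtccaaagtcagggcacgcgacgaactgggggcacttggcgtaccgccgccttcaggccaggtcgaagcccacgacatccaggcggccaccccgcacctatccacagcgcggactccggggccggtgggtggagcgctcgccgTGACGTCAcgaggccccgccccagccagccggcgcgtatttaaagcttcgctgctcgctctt
The decamers of Cdkn1a began 73 and 51 bases before the start site of the window shown. Cdkn1a had 2 promoter windows, and the other one held no decamer. Those of Ccng1 and Mdm2 began 185 and 186 bases before the start site, and the CREs of Btg2 and Plk2 166 and 62 bases before it.

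The first comparison asked whether the members differed between Chd7 Hom mutant and WT GNPs. A single member, Plk3, passed the test and was lower in Hom (limma with genotype and batch, Benjamini-Hochberg adjusted p under 0.05 over 17325 genes), which is 2.78% of the 36 members tested beside 2.68% of all genes tested (1.41% lower and 1.27% higher). No member was called higher, and the canonical p53 targets Cdkn1a, Mdm2, Bax, Bbc3 and Pmaip1 were not called in either direction. At an unadjusted p under 0.05, 9 members stood out, 25.0% beside 14.9% of all genes. The 4 lower ones were Plk3, Ccng2, Gadd45a and Gadd45b (11.1% of members beside 6.42% of all genes), and the 5 higher ones were Aen, Apaf1, Polk, Sesn1 and Trp53 (13.9% beside 8.51%). The median log2 change over the 36 members was 0.052, with 16 members below 0 and 20 above, beside a median of 0.024 over all genes. All log2 changes are differences in log2(TPM + 1) and understate the change of genes at low TPM.

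**Figure D1:**
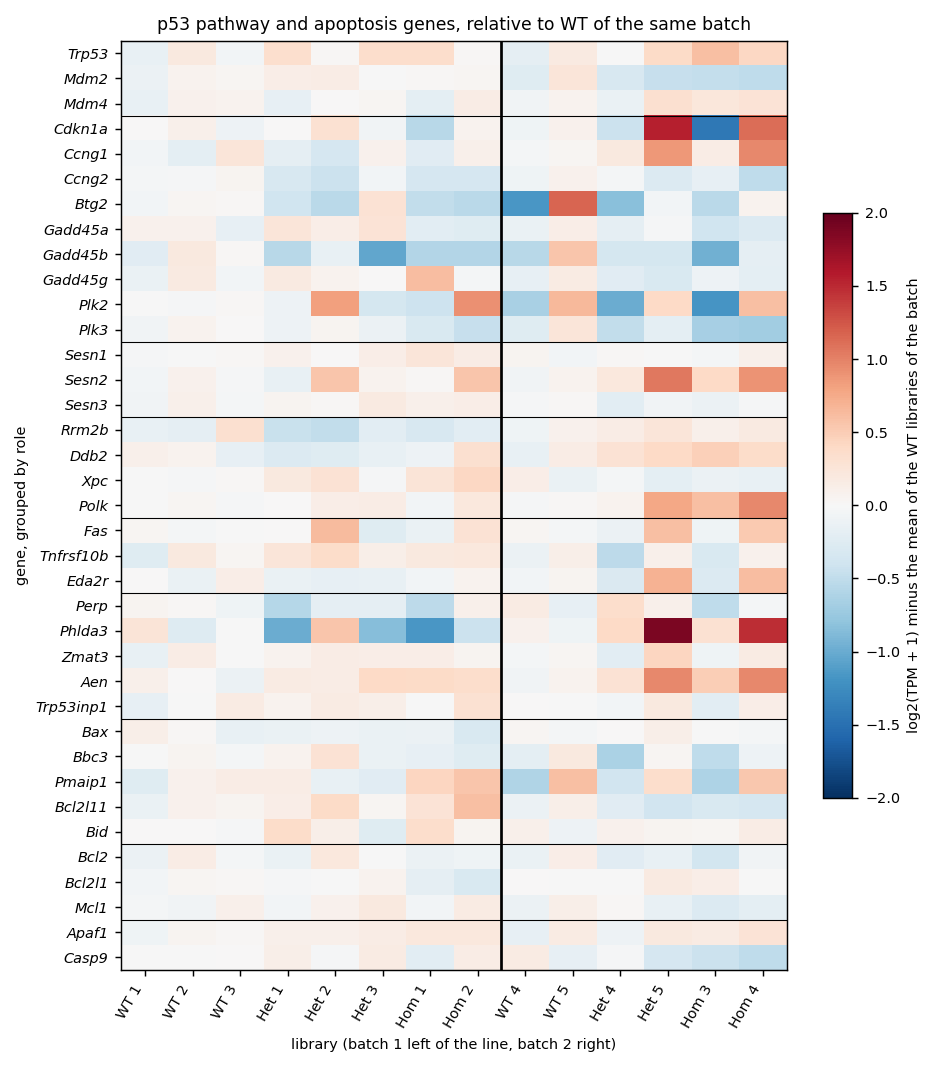
Heat map of the 37 genes (rows, grouped by role with thin lines between roles) in the 14 libraries (columns, batch 1 left of the thick line); colour is log2(TPM + 1) minus the mean of the WT libraries of the same batch, from -2 (blue) to 2 (red). Cdkn1a and Phlda3 are darkest red in Het 5 and Hom 4, Btg2 is coloured in opposite directions in WT 4 and WT 5, and the rows of Plk3 and Gadd45a are blue in all 4 Hom libraries.

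In the second comparison, Het against WT, 0 of 36 members were called by limma (0.00577% of all genes were), and 3 members had an unadjusted p under 0.05, which is 8.33% beside 6.08% of all genes. Aen was higher (3.2% of all genes were), and Ccng2 and Gadd45b were lower (2.88% of all genes were). The median change was 0.013, beside 0.0074 over all genes. Between Hom and Het, limma called 0 members as well (0.427% of all genes were called), and Gadd45a and Plk3, both lower in Hom, had an unadjusted p under 0.05 (5.56% of members beside 6.18% of all genes, 3.13% lower and 3.05% higher). The exact Kruskal-Wallis test over the 3 genotypes, applied after the batch term was removed, gave an unadjusted p under 0.01 for Aen (0.0048), Ccng2 (0.00564) and Plk3 (0.00427), which is 8.33% of members beside 4.63% of all genes, and an adjusted p under 0.05 for 0 members beside 1.2% of all genes. Hom against WT and Het against WT use the same 5 WT libraries, so their values are not independent.

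**Figure D2:**
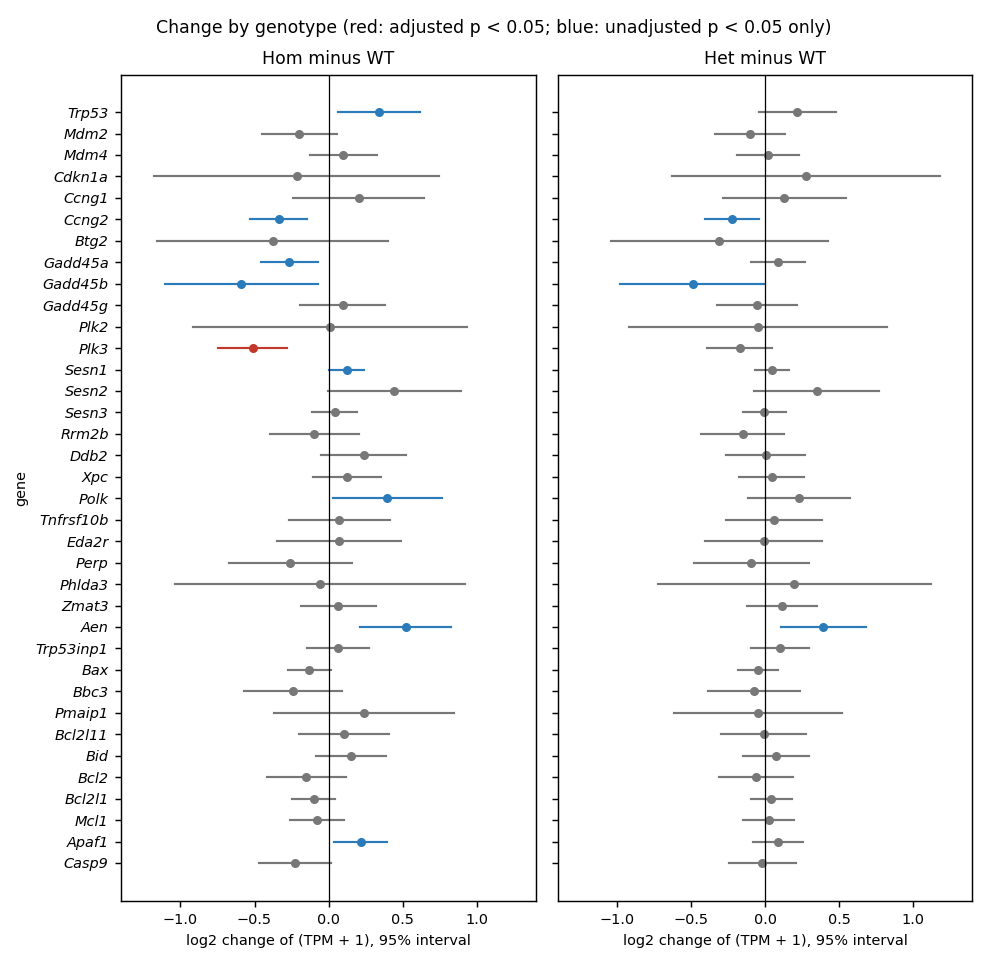
Log2 change of (TPM + 1) for the 36 members that passed the filter, Hom minus WT on the left and Het minus WT on the right; points are limma estimates adjusted for batch and lines are 95% intervals. Only Plk3 in Hom minus WT is drawn in red (adjusted p under 0.05), and the widest intervals belong to Cdkn1a, Phlda3, Plk2 and Btg2.

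Of the 3 genes at the core of the p53 loop, none was called. Trp53 (chr11:69580359-69591873, plus strand, GRCm38) stood at 81.5, 104, 86.3, 89.3 and 115 TPM in WT 1 to 5, at 114, 91.5, 115, 101.05 and 133 TPM in Het 1 to 5 and at 115, 91.2, 155 and 136 TPM in Hom 1 to 4. The means were 95.2 ± 13.9 in WT, 111 ± 15.6 in Het and 124 ± 27.4 TPM in Hom (SD, n = 5, 5 and 4), and Hom 3 and Hom 4 lay above every WT library whereas Hom 1 and Hom 2 lay within the WT range. Within batch 1, Hom 1 (115 TPM) was above WT 1 to 3 (81.5 to 104 TPM) and Hom 2 (91.2 TPM) was not. Trp53 mRNA was 0.34 ± 0.13 (SE), 95% interval 0.066 to 0.62, adjusted p = 0.222 for Hom against WT on the log2 scale, an unadjusted p of 0.0189 that did not survive the adjustment, and 0.22 ± 0.12 (SE), adjusted p = 0.842 for Het. Its change in Hom was 0.19 in batch 1 and 0.51 in batch 2, each batch fitted alone.

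Mdm2, which is both the main inhibitor of p53 and a p53 target (chr10:117688875-117710758, minus strand, GRCm38), was at 64.6, 73.8, 71.7, 74.97 and 105 TPM in WT 1 to 5, at 76.96, 77.3, 69.8, 70.9 and 64.4 TPM in Het 1 to 5 and at 71.4, 71.6, 63.7 and 62 TPM in Hom 1 to 4. WT 5 was the highest of all libraries, and the remaining WT libraries overlapped with the mutants. The change was -0.20 ± 0.12 (SE), 95% interval -0.45 to 0.055, adjusted p = 0.471 in Hom and -0.099 ± 0.11 (SE), adjusted p = 0.92 in Het, and without WT 5 these values were -0.061 in Hom and 0.025 in Het. In batch 1 alone it was 0.032 in Hom and 0.092 in Het. Mdm4, its partner, was at 92.2 to 152 TPM with a change of 0.10 in Hom and 0.02 in Het.

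Among the 9 genes of cell cycle arrest and growth control, Plk3 was called lower in Hom and the other 8 did not pass. Plk3 encodes a polo-like kinase of the stress response (chr4:117128655-117133963, minus strand, GRCm38). It was at 26.3, 29.03, 27.8, 33.4 and 46.9 TPM in WT 1 to 5, at 25.8, 28.7, 25.5, 27.8 and 34.4 TPM in Het 1 to 5 and at 22.3, 19.9, 24.6 and 23.98 TPM in Hom 1 to 4. All 4 Hom libraries were below all 5 WT libraries and all 5 Het libraries, and WT 5 was the highest. The means were 32.7 ± 8.38, 28.4 ± 3.6 and 22.7 ± 2.1 TPM (SD, n = 5, 5 and 4), and the change in Hom was -0.51 ± 0.11 (SE), 95% interval -0.75 to -0.28, adjusted p = 0.0218 (limma), a level 0.70 times that of WT on the log2(TPM + 1) scale. Against Het, the Hom change was -0.34 ± 0.11 (SE), adjusted p = 0.371, and the Het change against WT was -0.17 ± 0.10 (SE), adjusted p = 0.842. The direction was the same in batch 1 alone (-0.38) and in batch 2 alone (-0.68), but neither batch alone reached the threshold (adjusted p = 0.144 and 0.232). The call was lost when Hom 2, Hom 3 or Hom 4 was left out (limma adjusted p = 0.0619, 0.0523 and 0.072). Immediate early genes were measured beside it: of the 19 tested in a list of 20, 12 were lower in Hom at an unadjusted p under 0.05 (63.2%, beside 6.42% of all genes) and 2 of these were called. Their sum was 574 to 2855 TPM in WT, with WT 5 the highest, 519 to 806 TPM in Het and 519.7 to 644 TPM in Hom. Their part in the change of Plk3 was not tested. Without WT 5 the change of Plk3 was -0.40 with an adjusted p of 0.0247, and without Het 5 and Hom 4 it was -0.49 with an adjusted p of 0.0921.

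Ccng2, an unconventional cyclin associated with growth arrest (chr5:93267257-93276231, plus strand, GRCm38), was at 153, 155, 163, 127 and 144 TPM in WT 1 to 5, at 126, 116, 151, 132 and 111 TPM in Het 1 to 5 and at 125, 124, 121 and 95.2 TPM in Hom 1 to 4. Every Hom library was below every WT library, and the Het libraries lay between and across both. The change was -0.34 ± 0.09 (SE), 95% interval -0.53 to -0.14, adjusted p = 0.0707 in Hom and -0.22 ± 0.084 (SE), adjusted p = 0.702 in Het, so that neither passed, and without Hom 3 the Hom value came just under the threshold (adjusted p = 0.0497). Within batches the Hom change was -0.33 in batch 1 and -0.33 in batch 2.

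Gadd45a and Gadd45b encode related stress proteins that act on cell cycle and MAP kinase signalling. Gadd45a (chr6:67035096-67037457, minus strand, GRCm38) was at 37.8, 37.8, 31.9, 35.05 and 42.8 TPM in WT 1 to 5, at 42.4, 39.3, 43.5, 34.1 and 38.2 TPM in Het 1 to 5 and at 30.9, 30.2, 29 and 31.9 TPM in Hom 1 to 4. Each Hom library was below each Het library and below each WT library of its own batch, while across batches Hom 4 and WT 3 were level. The change of Gadd45a was -0.27 ± 0.09 (SE), adjusted p = 0.171 against WT and -0.35 ± 0.09 (SE), adjusted p = 0.15 against Het. Gadd45b, at low levels, was at 5.47, 7.71, 6.71, 3.08 and 7.83 TPM in WT 1 to 5, at 4.16, 5.8, 2.7, 3.7 and 3.7 TPM in Het 1 to 5 and at 4.02, 4.05, 2.09 and 4.29 TPM in Hom 1 to 4. WT 4 lay among the mutant libraries while the other WT libraries, with 5.47 TPM or more, were above all Hom libraries. Its change was -0.59 ± 0.24 (SE), adjusted p = 0.266 in Hom and -0.49 ± 0.23 (SE), adjusted p = 0.814 in Het. Ccng2, Gadd45a and Plk3 were the members for which every Hom library was below every WT library of its own batch, 8.33% of members beside 3.56% of all genes. For Het, no member was below WT in this way (1.09% of all genes were).

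**Figure D3:**
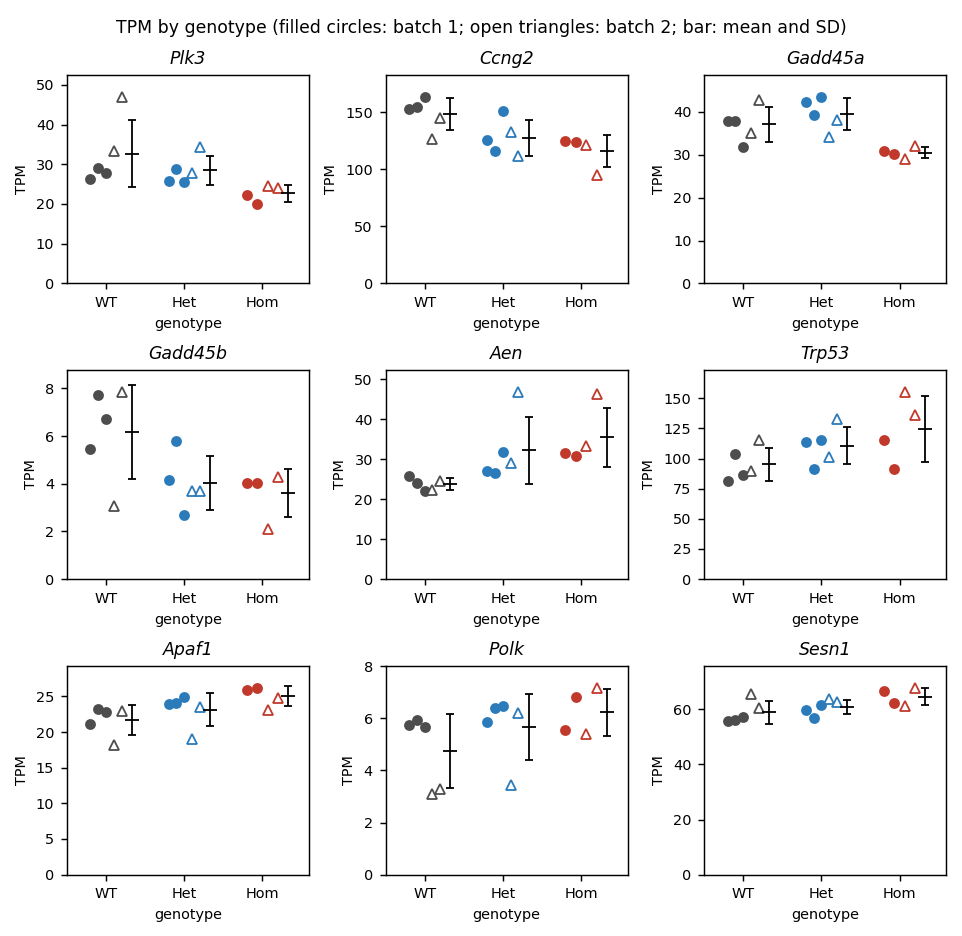
TPM of the 9 members with an unadjusted p under 0.05 in Hom against WT, by genotype; filled circles are batch 1 libraries, open triangles batch 2 libraries, and the bar gives the mean and SD (n = 5 WT, 5 Het and 4 Hom). The Hom points of Plk3 and Ccng2 lie below all WT points and those of Aen lie above all WT points, while the points of Trp53, Polk and Gadd45b overlap between genotypes.

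Cdkn1a, which encodes the CDK inhibitor p21 and is the classical p53 target of cell cycle arrest (chr17:29090976-29100727, plus strand, GRCm38), was at 15.9, 17.1, 14.7, 25.8 and 29.3 TPM in WT 1 to 5, at 16.03, 19.96, 15.2, 20.2 and 82.4 TPM in Het 1 to 5 and at 10.6, 16.7, 9.58 and 61.1 TPM in Hom 1 to 4. The highest values were in 1 Het and 1 Hom library of batch 2, and the lowest was in the other Hom library of the same batch. The means were 20.6 ± 6.54, 30.7 ± 28.97 and 24.5 ± 24.6 TPM (SD, n = 5, 5 and 4). The change was -0.21 ± 0.45 (SE), 95% interval -1.18 to 0.75, adjusted p = 0.88 in Hom and 0.28 ± 0.42 (SE), 95% interval -0.63 to 1.18, adjusted p = 0.95 in Het (limma). The sign turned in both contrasts with single libraries: Hom against WT was 0.25 without Hom 3 and -0.64 without Hom 4, and Het against WT was -0.057 without Het 5. These intervals are wide, so changes of either sign remain compatible with the values of Cdkn1a. In the same role group, Btg2, an antiproliferative immediate early gene, and Plk2, a polo-like kinase, had changes of -0.38 and 0.009 in Hom with SEs of 0.36 and 0.43. Ccng1 and Gadd45g were at 18.2 to 37.2 and 39.5 to 66.9 TPM and had changes of 0.20 and 0.096 in Hom, with adjusted p = 0.708 and 0.81.

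Aen, an exonuclease gene that p53 induces and that promotes apoptosis, had the largest change among the members that were higher in Hom, but it did not pass the adjusted test. The gene lies at chr7:78895854-78911209, plus strand, GRCm38. It was at 25.7, 23.97, 22.04, 22.3 and 24.6 TPM in WT 1 to 5, at 26.98, 26.4, 31.8, 28.9 and 46.7 TPM in Het 1 to 5 and at 31.5, 30.8, 33.2 and 46.4 TPM in Hom 1 to 4. Every Het and every Hom library was above every WT library, and Het 5 and Hom 4 were the highest. The means were 23.7 ± 1.55, 32.2 ± 8.38 and 35.5 ± 7.36 TPM (SD, n = 5, 5 and 4). The change was 0.52 ± 0.14 (SE), 95% interval 0.21 to 0.83, adjusted p = 0.0764 in Hom and 0.39 ± 0.13 (SE), 95% interval 0.11 to 0.68, adjusted p = 0.606 in Het (limma). Within batches it was 0.37 in batch 1 and 0.72 in batch 2 for Hom, and 0.24 and 0.63 for Het. Without Het 5, the Hom change of Aen passed the threshold at 0.53 (adjusted p = 0.0251), and without both Het 5 and Hom 4 it was 0.41 (adjusted p = 0.0385). Aen was the only member for which every Het library was above every WT library of its own batch (1.43% of all genes were), and with Apaf1 it was 1 of 2 members with every Hom library above (5.44% of all genes were). Among the other p53-induced genes of this kind, Phlda3, an Akt antagonist, Zmat3, an RNA-binding protein, Perp, a membrane protein of cell death, and Trp53inp1, a regulator of autophagy and p53, had changes in Hom of -0.057, 0.066, -0.26 and 0.063, none of them called.

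In the group of DNA repair and nucleotide supply, Polk, a translesion DNA polymerase, was at 5.75, 5.93, 5.66, 3.11 and 3.29 TPM in WT 1 to 5, at 5.85, 6.41, 6.49, 3.43 and 6.19 TPM in Het 1 to 5 and at 5.55, 6.81, 5.39 and 7.17 TPM in Hom 1 to 4. The low values in WT 4, WT 5 and Het 4 were all from batch 2, and the change of 0.40 ± 0.17 (SE), adjusted p = 0.289 in Hom was 0.077 in batch 1 and 0.78 in batch 2. Rrm2b, a ribonucleotide reductase subunit, and the damage recognition genes Ddb2 and Xpc had mean levels of 13.3, 13.04 and 16.5 TPM and changes of -0.095, 0.24 and 0.12 in Hom, without a call. The sestrins restrain mTORC1 signalling and oxidative stress. Sesn1 was at 55.7, 56.04, 57.3, 65.5 and 60.4 TPM in WT 1 to 5, at 59.8, 56.8, 61.5, 63.7 and 62.6 TPM in Het 1 to 5 and at 66.9, 62.5, 61.4 and 67.8 TPM in Hom 1 to 4. Its range over all libraries was narrow, the Hom values lay at its upper end and overlapped with WT 4, and the change was 0.12 ± 0.056 (SE), adjusted p = 0.327. For Sesn2 the change was 0.44 ± 0.21 (SE), adjusted p = 0.343 in Hom and 0.35 ± 0.20 (SE), adjusted p = 0.842 in Het, and for Sesn3 0.041 and -0.0052. The death receptors Tnfrsf10b and Eda2r were at 4.98 to 8.71 and 11.8 to 24.3 TPM, with changes of 0.074 and 0.071 in Hom.

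None of the 5 pro-apoptotic BCL2 family genes was called by genotype. Bax, the pore-forming effector, was at 129.99, 121, 108, 131 and 125 TPM in WT 1 to 5, at 109, 111, 108, 128 and 139 TPM in Het 1 to 5 and at 109, 96.2, 128 and 124 TPM in Hom 1 to 4. The genotypes overlapped, and the change was -0.13 ± 0.067 (SE), 95% interval -0.27 to 0.014, adjusted p = 0.392 in Hom and -0.048 ± 0.063 (SE), adjusted p = 0.936 in Het. Bbc3 was at 11.6, 12.2, 11.3, 20.3 and 26.7 TPM in WT 1 to 5, at 12.4, 14.4, 10.6, 14.6 and 23.9 TPM in Het 1 to 5 and at 10.3, 9.69, 16.04 and 21.6 TPM in Hom 1 to 4. All values above 16 TPM came from batch 2, in each genotype, and the change was -0.24 ± 0.15 (SE), adjusted p = 0.503 in Hom and -0.075 ± 0.14 (SE), adjusted p = 0.962 in Het. Pmaip1 was at 3.09, 4.12, 4.36, 3.06 and 8.36 TPM in WT 1 to 5, at 4.33, 3.36, 3.14, 3.74 and 6.9 TPM in Het 1 to 5 and at 5.51, 6.06, 3.04 and 7.91 TPM in Hom 1 to 4. Its highest values were in WT 5, Hom 4 and Het 5, and the change was 0.24 ± 0.28 (SE), adjusted p = 0.759 in Hom and -0.049 ± 0.26 (SE), adjusted p = 0.987 in Het. The Hom value of Pmaip1 ranged from 0.075 without WT 4 to 0.51 without Hom 3, and it turned to -0.039 in batch 2 alone. The other BH3-only genes, Bcl2l11 and Bid, had changes of 0.10 and 0.15 in Hom and -0.0091 and 0.075 in Het.

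The 3 anti-apoptotic genes had negative changes in Hom, none of which passed. Bcl2 was at 4.06, 5.07, 4.31, 3.92 and 4.96 TPM in WT 1 to 5, at 3.96, 5.3, 4.46, 3.63 and 3.89 TPM in Het 1 to 5 and at 4.06, 4.12, 3.22 and 4.13 TPM in Hom 1 to 4. The lowest value was in Hom 3 and the highest in Het 2, and the change was -0.15 ± 0.12 (SE), adjusted p = 0.635 in Hom and -0.062 ± 0.12 (SE), adjusted p = 0.962 in Het. Bcl2l1 was at 104, 110.4, 109.5, 116 and 115 TPM in WT 1 to 5, at 106, 108, 114, 114 and 130.2 TPM in Het 1 to 5 and at 95.02, 87.2, 126 and 115 TPM in Hom 1 to 4. Hom 1 and Hom 2 were below every other library, whereas Hom 3 and Hom 4 lay among the WT and Het values. Its change was -0.10 ± 0.069 (SE), 95% interval -0.25 to 0.047, adjusted p = 0.54 in Hom and 0.041 ± 0.064 (SE), adjusted p = 0.953 in Het, and in batch 2 alone the Hom value was 0.061. Mcl1 was at 108 to 144 TPM with a change of -0.078 in Hom. In TPM, a scale per transcript length, Mcl1 and Bcl2l1, with means of 127 and 111, were the abundant members of this group and Bcl2, with a mean of 4.22, the scarce one.

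The 2 apoptosome genes had changes of opposite sign in Hom, and neither was called. Apaf1 was at 21.1, 23.2, 22.8, 18.2 and 22.99 TPM in WT 1 to 5, at 23.97, 24.1, 24.9, 19.1 and 23.6 TPM in Het 1 to 5 and at 25.9, 26.2, 23.1 and 24.8 TPM in Hom 1 to 4. The Hom libraries lay above the WT libraries of their own batch, with a change of 0.22 ± 0.082 (SE), 95% interval 0.039 to 0.39, adjusted p = 0.233 in Hom and 0.089 ± 0.077 (SE), adjusted p = 0.895 in Het. Casp9 was at 28.6, 28.7, 29, 40.5 and 31.9 TPM in WT 1 to 5, at 31.2, 28.3, 32.5, 35.4 and 28.4 TPM in Het 1 to 5 and at 24.9, 32, 26.4 and 24.97 TPM in Hom 1 to 4. WT 4 was far above the other WT libraries, Hom 3 and Hom 4 were below both WT libraries of their batch, and the change was -0.23 ± 0.11 (SE), 95% interval -0.47 to 0.015, adjusted p = 0.371 in Hom and -0.019 ± 0.11 (SE), adjusted p = 0.988 in Het. Without WT 4 the Hom change of Casp9 was -0.13.

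Several p53 targets differed 2-fold or more between libraries of the same genotype and batch. These libraries were singled out after their values were seen, and each pair below is 1 library against 1, without a test. Cdkn1a was 82.4 TPM in Het 5 beside 20.2 TPM in Het 4, and 61.1 TPM in Hom 4 beside 9.58 TPM in Hom 3. Phlda3 was 12.8 beside 3.94 TPM and 9.45 beside 3.62 TPM in the same pairs. Both genes were thus high in 1 of the 2 mutant libraries of each genotype in batch 2. Eda2r was 24.3 beside 11.8 TPM and 22.9 beside 11.99 TPM, Ccng1 34.97 beside 21.4 TPM and 37.2 beside 20.9 TPM, and Sesn2 12.7 beside 6.62 TPM and 11.2 beside 7.63 TPM. Het 5 was the highest of the 14 libraries for 8 of 36 members (Aen, Bax, Bcl2l1, Cdkn1a, Eda2r, Phlda3, Sesn2 and Zmat3), 22.2% beside 4.71% of all genes, and Hom 4 for 3 members (Ccng1, Polk and Sesn1), 8.33% beside 9.6% of all genes. Hom 3 was the lowest of the 14 libraries for 8 members, Cdkn1a and Pmaip1 among them (22.2% beside 7.09% of all genes), and Het 4 for 2 (5.56% beside 8.17%). The Hom pair thus sets a high library beside one that was low for several members. At least 2-fold higher on the log2(TPM + 1) scale were Cdkn1a, Phlda3 and Plk2 in Het 5 against Het 4 (8.33% of members beside 2.82% of all genes) and Cdkn1a, Phlda3, Plk2 and Pmaip1 in Hom 4 against Hom 3 (11.1% beside 3.01%), and no member was 2-fold lower in either pair (1.34% and 1.41% of all genes were). Mdm2 was not high in these libraries, with 64.4 TPM in Het 5 beside 70.9 TPM in Het 4 and 62 TPM in Hom 4 beside 63.7 TPM in Hom 3. Trp53 was 133 beside 101.05 TPM in the Het pair and 136 beside 155 TPM in the Hom pair. Endothelial and mural genes summed to 304 TPM in Het 5 beside 198.9 TPM in Het 4 and to 375 TPM in Hom 4 beside 250.2 TPM in Hom 3, and their part in these differences was not tested. Het 2, with the highest endothelial and mural sum of 592 TPM, had 19.96 TPM of Cdkn1a and 6.68 TPM of Phlda3. Both were the highest values of batch 1, where the next were 17.12 TPM of Cdkn1a in WT 2 and 5.26 TPM of Phlda3 in WT 1.

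**Figure D4:**
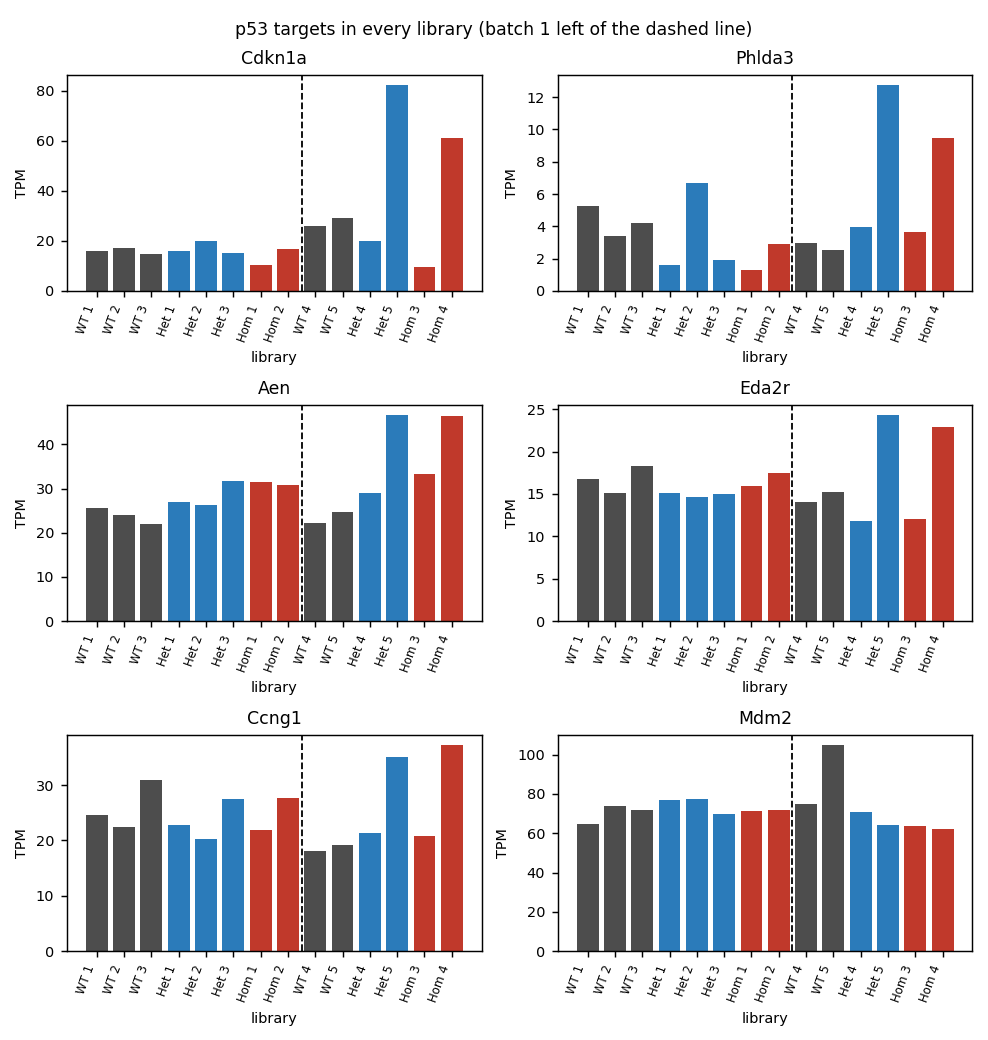
TPM of 6 p53 targets (bars, from 0) in each of the 14 libraries, coloured by genotype (grey WT, blue Het, red Hom), with batch 1 left of the dashed line. Het 5 and Hom 4 carry the 2 highest bars for Cdkn1a, Phlda3, Aen, Eda2r and Ccng1, and for Mdm2 the highest bar is WT 5.

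Other members, and some of the same ones, were high in WT 5. It was the highest library for 10 of 36 members (Bbc3, Bcl2l11, Btg2, Gadd45b, Mdm2, Plk2, Plk3, Pmaip1, Sesn3 and Tnfrsf10b), 27.8% beside 10.9% of all genes. Btg2 was 139.7 TPM in WT 5 beside 27.1 TPM in WT 4 and 34.3 to 65.04 TPM in the mutant libraries. Plk2 was 32.4 beside 12.6 TPM and Pmaip1 8.36 beside 3.06 TPM in the same pair. Both were also high in Het 5 (Plk2 27.1 and Pmaip1 6.9 TPM) and in Hom 4 (31.2 and 7.91 TPM). Btg2, Gadd45b, Plk2 and Pmaip1 were at least 2-fold higher in WT 5 than in WT 4 on the log2(TPM + 1) scale, 11.1% of members beside 2.52% of all genes, and no member was 2-fold lower (2.25% of all genes were). The summed level of 20 immediate early and dissociation response genes was 2855 TPM in WT 5 beside 574 TPM in WT 4 and 519 to 973 TPM in the other libraries. Its part in the levels of Btg2, Plk2 and the other members of WT 5 was not tested. Cdkn1a (29.3 TPM) and Phlda3 (2.53 TPM) in WT 5 were close to WT 4 (25.8 and 2.97 TPM). Btg2 and Plk2 are the members with a CRE in the promoter window. That motif was chosen after the values were seen, and its part in these levels was not tested.

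**Figure D5:**
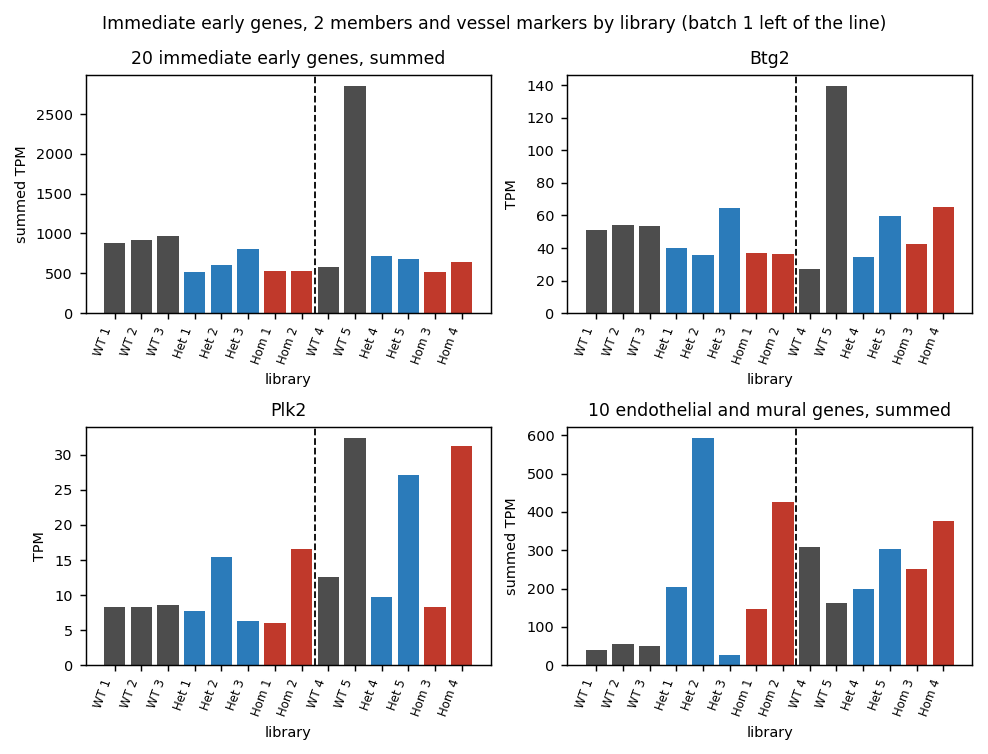
Summed TPM of 20 immediate early genes, TPM of Btg2 and Plk2, and summed TPM of 10 endothelial and mural genes (bars, from 0) in each library, coloured by genotype (grey WT, blue Het, red Hom), with batch 1 left of the dashed line. WT 5 has the highest bar for the immediate early sum, Btg2 and Plk2, Plk2 is also high in Het 5 and Hom 4, and the endothelial sum is highest in Het 2.

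With genotype in the model, 6 of 36 members were called for batch 2 against batch 1 (16.7% beside 13.5% of all genes). Of these, 5 were higher in batch 2 (13.9% beside 7.88%) and 1 was lower (2.78% beside 5.61%). Bbc3 was higher in batch 2 by 0.77 ± 0.12 (SE), adjusted p = 0.00241, with means of 11.6 TPM over the 8 libraries of batch 1 and 20.5 TPM over the 6 of batch 2. The other 4 that were higher were Sesn2 (0.67 ± 0.17 (SE), adjusted p = 0.0212), Plk3 (0.31, adjusted p = 0.0342), Bax (0.22, adjusted p = 0.0182) and Bcl2l1 (0.21, adjusted p = 0.026). Mdm4 was lower in batch 2 (-0.31 ± 0.084 (SE), adjusted p = 0.0269). With Het 3 given to batch 2, as its labels resemble those of that batch, 0 members were called beside 4.13% of all genes, and 8 had an unadjusted p under 0.05 (22.2% beside 22.3%). Without Het 5 and Hom 4, Bbc3, Eda2r, Mdm4 and Polk were called (11.1% beside 11.2% of all genes).

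No member was called for a genotype effect that differed between the batches. For Hom, limma called 0 of 36 members on the interaction term (0.0115% of all genes), with 6 at an unadjusted p under 0.05 (16.7% beside 17.2% of all genes), 4 of them lower (8.85% of all genes were) and 2 higher (8.35% were). Bcl2l11 had the smallest p: it was 30.2 and 38.1 TPM in the Hom libraries and 22.5 to 26.2 TPM in the WT libraries of batch 1, against 30.7 and 30.1 TPM in Hom and 35.2 and 41.2 TPM in WT in batch 2. Its Hom change was thus above WT in batch 1 and below WT in batch 2, a difference of -0.75 ± 0.20 (SE), adjusted p = 0.136. For Het, limma called 0 members on the interaction (0.00577% of all genes) and 4 had an unadjusted p under 0.05 (11.1% beside 9.3%), 2 lower (5.82% of all genes were) and 2 higher (3.48% were). Mdm2 was among these members in both contrasts, which share their WT libraries, at -0.52 ± 0.18 (SE), adjusted p = 0.188 for Hom and -0.48 ± 0.17 (SE), adjusted p = 0.486 for Het.

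Other genes of the pathway were taken from lists of known pathway genes. Of 18 other regulators of p53, such as Atm, Chek1 and Ppm1d, 16 were tested and 0 were called by limma in any genotype contrast (6, 3 and 1 at an unadjusted p under 0.05 in Hom against WT, Het against WT and Hom against Het, which is 37.5%, 18.8% and 6.25% beside 14.9%, 6.08% and 6.18% of all genes). Of 32 other p53 targets, 28 were tested and 0 were called (4, 0 and 0 at an unadjusted p under 0.05), and the 4 in Hom against WT are 14.3%, close to the share of all genes. Of 28 other genes of intrinsic apoptosis, all were tested, and Hrk was called higher in Hom against WT (1.27% of all genes were called higher). Hrk encodes the BH3-only protein Harakiri, which is known from neurons deprived of trophic support. It was at 2.03, 1.81, 1.54, 1.32 and 1.36 TPM in WT 1 to 5, at 1.4, 1.82, 1.49, 1.22 and 2.97 TPM in Het 1 to 5 and at 4.04, 3.97, 3.72 and 4.95 TPM in Hom 1 to 4. Every Hom library was above every WT and every Het library, with means of 1.61 ± 0.3, 1.78 ± 0.7 and 4.17 ± 0.54 TPM (SD, n = 5, 5 and 4). The change was 0.99 ± 0.18 (SE), 95% interval 0.60 to 1.37, adjusted p = 0.00914 in Hom against WT, 0.92 ± 0.18 (SE), adjusted p = 0.0454 in Hom against Het and 0.065 ± 0.17 (SE), adjusted p = 0.975 in Het against WT (limma). Leaving out each library in turn left the call against WT in place (adjusted p up to 0.0388), but neither batch alone reached the threshold (adjusted p = 0.102 and 0.232), and the call against Het was lost without any one library other than Het 5 (adjusted p up to 0.162) and at pseudocounts of 0.1 and 0.5 (adjusted p = 0.0591 and 0.0555). It was also lost in each batch alone, with the filter on low values relaxed and with only the 2 genotypes compared. These values are of mRNA and not of protein. In Het against WT 0 of these 28 genes were called (1 at an unadjusted p under 0.05, which is 3.57% beside 6.08% of all genes).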

How the data were processed

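RNA-seq of 14 libraries (5 WT, 5 Het, 4 Hom) was analysed from the 1 table the authors deposited, which holds gene-level TPM values. The authors mapped single-end reads to the Ensembl mm10 transcriptome with Bowtie 1.0.0 and estimated expression with RSEM 1.2.15 at default parameters. TPM keeps no read count, so the depth of each library is unknown and no counting error is given, and as a share of a fixed total it moves when abundant genes change. The labels do not say whether replicates came from separate animals, so p-values measure the spread between these libraries. Symbols and positions came from GENCODE (GRCm38), which named 40254 of 41381 genes. Genes reaching 1 TPM in 4 or more libraries (17325) were fitted as log2(TPM + 1) in limma 3.58.1 (R 4.3.3, intensity trend) with genotype and batch, and p-values were two-sided and adjusted over all genes (threshold 0.05). The study's ComBat and Kruskal-Wallis tests were replaced by the batch term and by an exact Kruskal-Wallis test after removal of that term. The fit was tested on simulated data. Members, gene lists and tests were chosen with earlier results of these data known. Full values are given for Trp53, Mdm2, Cdkn1a, Bax, Bbc3, Pmaip1, Apaf1, Casp9, Bcl2, Bcl2l1 and every member with an unadjusted p under 0.05 in a genotype contrast, and for Hrk among the other pathway genes called; 1 result for another of these genes is not reported here. Alternatives changed the pseudocount, filter, scaling, batch term, samples, weights, test, pairing and each library in turn.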

Additional observations from a re-analysis of the deposited data

Results flagged for a closer look

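In 19 of 111 groups (37 members in 3 genotypes), 1 library lay further from the others than Dixon's 95% critical value allows. That value is set so that about 1 in 20 groups of independent, normally distributed values exceed it by chance. Here each group mixes 2 batches and the genes share libraries, so this rate need not hold. These cases fell on 7 libraries: 4 each on WT 5 and Het 5, 3 on Hom 4 and 2 each on WT 4, Het 4, Hom 2 and Hom 3.

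Het 5 was the high library of its group for Cdkn1a (82.41 TPM, next 20.17 TPM), Eda2r (24.31 TPM, next 15.07 TPM), Zmat3 (20.65 TPM, next 14.65 TPM) and Aen (46.67 TPM, next 31.76 TPM). Hom 4 was the high library for Cdkn1a (61.1 TPM, next 16.74 TPM) and Aen (46.39 TPM, next 33.24 TPM) and the low library for Ccng2 (95.18 TPM, next 121.16 TPM). WT 5 was the high library for Mdm2 (104.72 TPM, next 74.97 TPM), Btg2 (139.72 TPM, next 54.43 TPM), Plk2 (32.37 TPM, next 12.59 TPM) and Pmaip1 (8.36 TPM, next 4.36 TPM).

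WT 4 was the high library for Bid (21.49 TPM, next 18.64 TPM) and Casp9 (40.47 TPM, next 31.95 TPM). Het 4 was the low library for Polk (3.43 TPM, next 5.85 TPM) and Apaf1 (19.07 TPM, next 23.57 TPM). Hom 2 was the high library for Mdm4 (151.79 TPM, next 122.45 TPM) and Bcl2l11 (38.06 TPM, next 30.68 TPM), and Hom 3 the low library for Gadd45b (2.09 TPM, next 4.02 TPM) and Bcl2 (3.22 TPM, next 4.06 TPM). Of these 7 libraries all but Hom 2 are from batch 2, and the part of the batch was not tested.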

How the results depend on the processing

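The count of 1 member called in Hom against WT was 0 with no batch term, in batch 1 alone, in batch 2 alone, with only the 2 genotypes compared, with the replicate block and without WT 5, Het 5 and Hom 4; it was 2 with array weights (Ccng2 and Plk3) and 3 with the exact Kruskal-Wallis test at an unadjusted p under 0.01 (Aen, Ccng2 and Plk3). Leaving out each library gave 0 (Hom 2 or Hom 4) to 2 (Het 5, Aen and Plk3); the 1 member was Ccng2 without Hom 3 and Aen without both Het 5 and Hom 4. For batch 2 against batch 1 the 6 members became 0 with Het 3 in batch 2 (715 of all genes called, against 2338) and 0 with the replicate block (4 of all genes called), and 4 to 7 when each library was left out. The counts of 0 for Het against WT, Hom against Het and both interactions were 0 under all alternatives run. The median member change in Hom went from 0.052 to -0.055 in batch 2 alone and ranged from -0.028 (without Hom 2) to 0.11 (without Hom 3) when each library was left out; in Het this range was -0.019 to 0.051.

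Some members changed sign. In Hom, Mdm2 was 0.032 in batch 1 alone, Cdkn1a was 0.37 with the replicate block and 0.25 without Hom 3, and in batch 2 alone Pmaip1 was -0.039 and Bcl2l1 0.061. In Het, Mdm2 was 0.092 in batch 1 alone, 0.025 without WT 5 and 0.049 without WT 5, Het 5 and Hom 4, and Cdkn1a was -0.057 without Het 5, -0.11 without Het 5 and Hom 4 and -0.020 without WT 5, Het 5 and Hom 4. When each library was left out, Cdkn1a ranged from -0.64 to 0.25 in Hom and from -0.057 to 0.51 in Het, and Mdm2 from -0.16 to 0.025 in Het. The fits without Het 5 and Hom 4, with or without WT 5, and the replicate block for the batch contrast were chosen after seeing the data. The cause of these shifts was not tested.

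Same-numbered libraries of different genotypes did not deviate together: over 13 pairs the correlation of their deviations was -0.235 to 0.264, it was over 0.1 in 3, and 3 of 14 libraries correlated best with their own number. With the replicate block the call of Hrk in Hom against WT was lost too (limma adjusted p = 0.056). Depth is unknown here, and with 4 or 5 libraries a group, changes of the size seen for most members are within the error.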
